A study of Callithrix jacchus with 6 samples.

Results

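Interneurons that carry LHX6, the transcription factor of cells born in the medial ganglionic eminence, were followed in single-cell RNA data from marmoset hippocampus (Callithrix jacchus). The title of the series calls the animals aged. There were 3 libraries taken after 6 h of sevoflurane, an inhaled anaesthetic, and 3 control libraries taken after 6 h of oxygen. Both groups are given as hippocampi, and no genotype, sex or exact age is stated. Nothing in the labels ties the 3 libraries of a group to separate animals. The p-values therefore reflect library-to-library spread only, which may be technical. A barcode was counted as an LHX6 interneuron if it held at least 2000 unique molecular identifiers (UMIs), at least 2 UMIs of the GABA-synthesising enzymes GAD1 and GAD2 together, LHX6 itself, and at least 3 UMIs of LHX6 and the secreted synapse protein NXPH1 together. The sum of LHX6 and NXPH1 also had to exceed the UMIs of ADARB2, and the glutamate transporter SLC17A7 could have at most 1 UMI. These conditions chose 1554 of 46582 barcodes. Since measured values chose the members, the marker genes in the rule describe them and are no finding.

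Interneurons release GABA and hold principal neurons in check. Those born in the medial ganglionic eminence keep LHX6 through life, together with SOX6 and SATB1, which act downstream of it. In the hippocampus they become fast-firing parvalbumin cells around the cell bodies of pyramidal neurons and chandelier cells on the axon initial segment. They also become somatostatin cells on dendrites and cells that carry LAMP5 beside LHX6. Interneurons of the caudal ganglionic eminence instead carry ADARB2, PROX1, NR2F2 or VIP. Sevoflurane acts in large part by strengthening the GABA-A receptors through which all of these cells signal.

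The 3 sevoflurane libraries held 198, 141 and 412 LHX6 interneurons, and the 3 control libraries held 279, 310 and 214. Their median depth was between 6657 and 10238 UMIs per cell in sevoflurane libraries and between 6836 and 7932.5 in control libraries. Summed over its LHX6 interneurons, a library gave between 1547298 and 3126926 UMIs, 13248997 in all. Few cells lay near the conditions on LHX6 and NXPH1, with 12 members at a sum of exactly 3 and 10 barcodes left out at 2. The limit on GAD lay in a denser range, with 118 members at 2 UMIs and 106 barcodes left out at 1. For SLC17A7, 413 members had 1 UMI and 114 barcodes were left out at 2. The limit on total UMIs had few cells near it, with 8 members just above it and 0 barcodes just below it. Depth mattered more for the other conditions. When barcodes with at least 2000 UMIs were thinned to 2000 randomly drawn UMIs, 65, 35 and 121 met the rule in sevoflurane libraries. In control libraries 79, 92 and 63 met it. Doublets were scored by library, and 87 members (5.60%) were marked; they were kept, and the results without them are given with the other alternatives. Among all barcodes, 261 sequences occurred in more than 1 library, and 0 of these were members in more than 1 library.

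One library stood apart. ZBTB20, which specifies hippocampal pyramidal cells, was at 23.6 CPM (UMIs of the gene per 1000000 UMIs of the class in that library) in glutamatergic neurons of sevoflurane replicate 3, and at 328 to 648 CPM in those of the remaining 5 libraries. RORB, known from the middle layers of neocortex, was at 364 CPM there and at 9.70 to 51.7 CPM in the remaining libraries. Glutamatergic neurons were barcodes with at least 3 SLC17A7 UMIs and no GAD UMI. Levels of other regional genes in glutamatergic neurons are not given here. ZBTB20 and RORB went against the hippocampal label of this library and of no other. Its LHX6 interneurons shared the difference in RORB, with 87.0 CPM against 4.68 to 15.4 CPM elsewhere, but not that in ZBTB20, with 60.4 CPM inside the range of 36.8 to 69.7 CPM of the other libraries. The summed profile of its LHX6 interneurons correlated with those of other libraries at no more than 0.9502 (log2 CPM across genes), while each of the others reached at least 0.963 with some library. Results are therefore also given without sevoflurane replicate 3.

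The first question was what sets LHX6 interneurons apart from ADARB2 interneurons, the 725 barcodes chosen by the mirrored rule with ADARB2 in place of LHX6 and NXPH1. The rule chose both classes by their expression, so the levels are a description and carry no test. LHX6 itself ranged from 273 to 325 CPM over the 6 libraries in LHX6 interneurons, and from 0 to 9.84 CPM in ADARB2 interneurons. NXPH1, which binds neurexins at inhibitory synapses, ranged from 2203 to 3042 CPM in LHX6 interneurons and from 159 to 256 CPM in ADARB2 interneurons. SLC17A7 was alike in both, at 27.4 to 38.5 CPM in LHX6 interneurons and 28.5 to 42.0 CPM in ADARB2 interneurons, both limited by the rule.

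SOX6, SATB1 and MAF, 3 other transcription factors of the medial lineage, followed LHX6. SOX6 ranged from 186 to 630.3 CPM in LHX6 interneurons and from 5.26 to 55.3 CPM in ADARB2 interneurons. SATB1, a chromatin organiser that mouse somatostatin cells need, ranged from 145 to 214 CPM in LHX6 interneurons and from 28.5 to 45.6 CPM in ADARB2 interneurons. MAF, which steers the choice between somatostatin and parvalbumin fates in mice, ranged from 52.9 to 128 CPM in LHX6 interneurons and from 29.8 to 46.9 CPM in ADARB2 interneurons. For these 3 genes the ranges of the classes did not overlap, and all 6 libraries had more in LHX6 interneurons. NKX2-1, which switches LHX6 on in the embryo, was at 0 to 1.56 CPM in LHX6 interneurons and at 0 in all ADARB2 interneurons.

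Genes of the caudal lineage were lower in LHX6 interneurons. PROX1 ranged from 7.11 to 18.2 CPM in LHX6 interneurons and from 44.2 to 108 CPM in ADARB2 interneurons, and NR2F2 from 5.12 to 23.3 CPM in LHX6 interneurons and from 40.6 to 59.5 CPM in ADARB2 interneurons. The peptide gene VIP stood at 0 to 1.37 CPM in LHX6 interneurons and at 7.38 to 18.4 CPM in ADARB2 interneurons. SP8, a transcription factor of caudal cells, was at 0 in LHX6 interneurons of every library and at 2.46 to 6.07 CPM in ADARB2 interneurons. The calcium-binding protein gene CALB2, at 7.36 to 23.9 CPM in LHX6 interneurons and 52.6 to 84.9 CPM in ADARB2 interneurons, completed a set of 5 caudal genes whose ranges did not overlap. RELN, a secreted glycoprotein made by interneurons of either origin, did overlap, with 289 to 544 CPM in LHX6 interneurons and 288 to 2036 CPM in ADARB2 interneurons.

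Genes outside the rule were also ranked by the size of their difference between the classes. The genes below were picked from both ends of that ranking, so their separation is a description and no finding. LTBP1, STK32B and FREM2, also at the ends of the ranking, overlapped between the classes. The kainate receptor subunit GRIK3 ranged from 259 to 378 CPM in LHX6 interneurons and from 8.77 to 59.7 CPM in ADARB2 interneurons. OPRD1, the delta opioid receptor, ranged from 67.9 to 115 CPM in LHX6 interneurons and from 4.92 to 21.1 CPM in ADARB2 interneurons. HTR7, a serotonin receptor, ranged from 121 to 210.0 CPM in LHX6 interneurons and from 5.26 to 36.8 CPM in ADARB2 interneurons. All 3 receptors lay higher in LHX6 interneurons of every library, as did EYS (369 to 669.8 CPM in LHX6 interneurons, 21.3 to 63.2 CPM in ADARB2 interneurons) and the transcription factor CUX2 (284 to 547 CPM in LHX6 interneurons, 14.04 to 74.9 CPM in ADARB2 interneurons). Lower in LHX6 interneurons were the potassium channel KCNT2 (45.9 to 115 CPM, against 742 to 1023 CPM in ADARB2 interneurons), the sorting receptor SORCS3 (65.9 to 133 CPM, against 628 to 987 CPM) and PDE3A, which breaks down cyclic AMP (32.6 to 89.9 CPM, against 138 to 1254 CPM). The plot of levels in both classes shows how far apart the lineage genes lie.

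**Figure D1:**
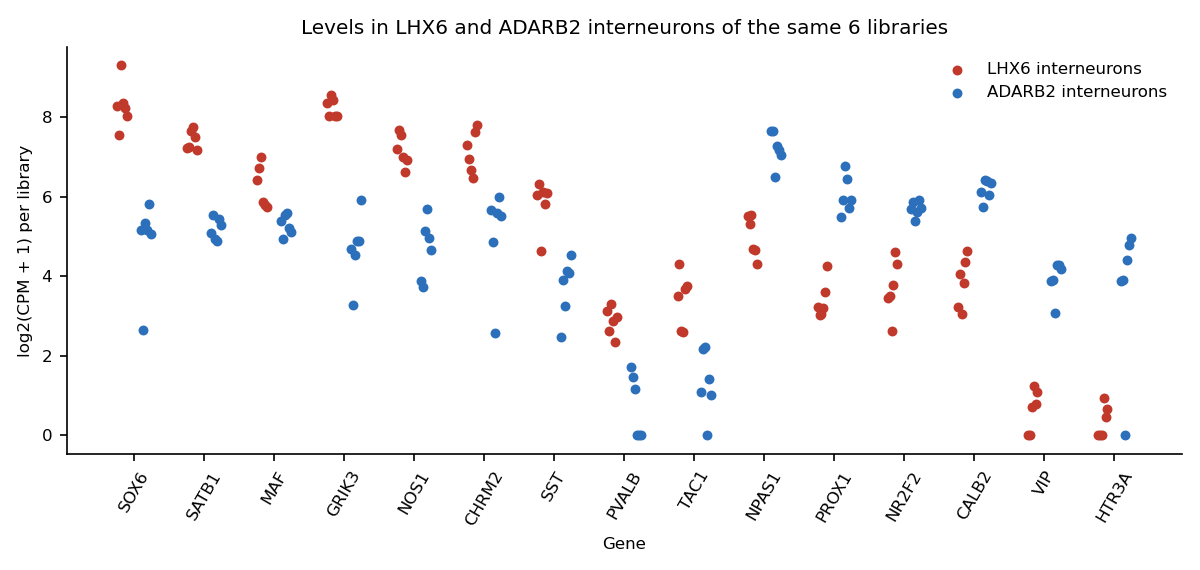
Levels of 15 genes in LHX6 interneurons (red, left of each pair) and ADARB2 interneurons (blue), as log2(CPM + 1) on the vertical axis, with 1 point per class and library. SOX6, SATB1 and GRIK3 are higher in LHX6 interneurons of all 6 libraries, and PROX1, NR2F2, CALB2 and VIP are lower.

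Among themselves the 1554 cells fell into 13 subclusters (Leiden clustering at resolution 0.5). A subcluster took a name where at least 3 markers of 1 subtype were at least 1.5 times as high as in the other LHX6 interneurons and present in at least 10% of its cells, more than of any other subtype. Markers of another cell class could not outnumber its own among its 10 leading genes. The genes that define subclusters are given as a description. The names were rebuilt here and may differ from the study's.

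Subclusters 1 and 5, with 216 and 136 cells, were SST-like. Subcluster 1 had 120.3 CPM of SST, the inhibitory peptide somatostatin, 652 CPM of the glutamate receptor subunit GRIN3A and 968 CPM of RELN; its leading genes included GULP1, PCDH11X and PROM1. Subcluster 5 had 57.8 CPM of SST but 1309 CPM of TRHDE, the enzyme that breaks down thyrotropin-releasing hormone, with IL1RAPL2 and SPON1 among its leading genes. Both SST-like subclusters were therefore rich in RELN (961 CPM in subcluster 5) but differed in ERBB4, the neuregulin receptor through which interneurons form synapses, at 1213 CPM in subcluster 1 and 5854 CPM in subcluster 5. The range of ERBB4 over the other 11 subclusters was 2257 to 15908 CPM, so subcluster 1 was the lowest of the 13.

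Subclusters 4, 6 and 7, with 138, 122 and 114 cells, were PVALB-like. PVALB, the calcium buffer parvalbumin, was sparse everywhere and reached 22.6, 20.6 and 11.7 CPM in these 3 subclusters, against 3.05 and 0 CPM in the SST-like ones; unnamed subcluster 9 had 14.5 CPM. RELN was near absent in all 3 PVALB-like subclusters, at 10.3, 11.4 and 7.79 CPM. ACAN, the core protein of the perineuronal nets that surround parvalbumin cells, was at 36.9, 18.3 and 19.5 CPM there and at 1.52 and 0.918 CPM in the SST-like subclusters. It was not particular to them, with 20.9 CPM in unnamed subcluster 9 and 19.4 CPM in chandelier-like subcluster 11. The PVALB-like subclusters differed in LRRC38, a subunit of potassium channels (173, 78.8 and 29.2 CPM), and in the sulfatase SULF1 (149, 505 and 46.7 CPM).

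Subcluster 11, with 82 cells, was chandelier-like: the netrin receptor UNC5B stood at 197 CPM and CA8 at 213 CPM, while SATB1 was at 15.8 CPM. Subcluster 8, with 108 cells, was LAMP5 LHX6-like. It had 64.3 CPM of LAMP5, 294 CPM of the synaptic vesicle protein SV2C and 187 CPM of the receptor KIT. It also had 389 CPM of ADARB2 beside 303 CPM of LHX6, so cells of this subcluster carried genes of both lineages, and ADARB2 UMIs were found in 68.5% of them. Over all 1554 cells, 184 had an ADARB2 UMI. NOS1, which makes nitric oxide, was at 593 CPM in subcluster 8, and TACR1, the receptor of substance P, at 986 CPM.

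The remaining 6 subclusters were left unnamed. Subcluster 2 (169 cells) had 108 CPM of SST and 94.4 CPM of NPY, but only 2 raised SST markers, and was led by OLFM3 and COL11A1. Subcluster 3 (140 cells) had 1377 CPM of the serotonin receptor HTR2C and 1494 CPM of GAD2, with 4 raised chandelier markers and 4 raised LAMP5 LHX6 markers. After subcluster 8, it had the most LAMP5 (40.9 CPM) and SV2C (160 CPM). Its SATB1 (9.52 CPM), GRIK3 (15.2 CPM) and SOX6 (55.2 CPM) were the lowest of the 13, although its LHX6 stood at 345 CPM. Subcluster 9 (100 cells) was led by PPP1R1C, TLL1 and CHST9, and had the highest OPRM1, the mu opioid receptor, at 95.2 CPM. Subclusters 10, 12 and 13 (99, 76 and 54 cells) had 40.4%, 19.7% and 51.9% of cells marked as doublets. They carried genes of other cells, such as the astrocyte glutamate transporter SLC1A2 at 1339 CPM in subcluster 12 and the myelin gene MBP at 771 CPM in subcluster 13. No subcluster met the rule for long-range projecting cells. CHODL, their usual marker, was highest in LAMP5 LHX6-like subcluster 8, at 8.65 CPM. Of the 7 long-range markers 2 were raised in subcluster 8, NOS1 and TACR1.

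**Figure D2:**
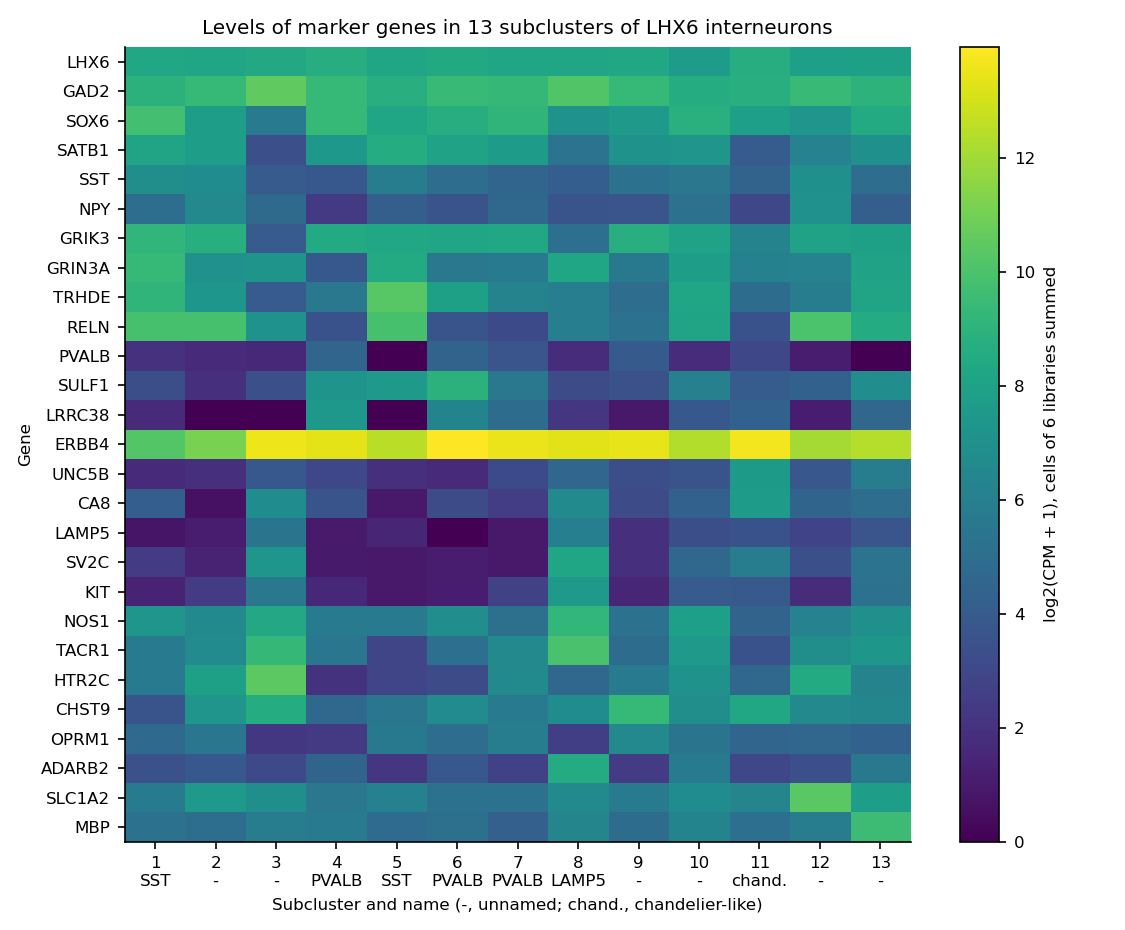
Levels of 27 marker genes (rows) in the 13 subclusters of LHX6 interneurons (columns), as log2(CPM + 1) with the UMIs of 6 libraries summed. LHX6 and GAD2 are present throughout, RELN separates the SST-like from the PVALB-like subclusters, and ADARB2 marks subcluster 8. LAMP5 and SV2C are highest in subcluster 8 and next highest in subcluster 3.

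Of the 1554 cells, 397 had an SST UMI and 82 a PVALB UMI, and 18 had both. SST was found in 21.95% of cells with PVALB and in 25.7% of cells without it, so these counts show no separation of SST from PVALB cell by cell. NPY, a peptide that many somatostatin cells share, was found in 272 cells, and 120 of these also had SST, 44.1%. Among cells without NPY, 21.6% had SST. These counts are of detection at the depth of each cell, and cells with more UMIs can show more of any gene.

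The subclusters were spread unevenly over libraries. Sevoflurane replicate 3 held 131 of the 138 cells of PVALB-like subcluster 4 and 124 of the 216 cells of SST-like subcluster 1. It held 0 cells of subclusters 3 and 9, which the other 5 libraries held at 20 to 38 and at 9 to 25 cells. Genes of those subclusters were low in its sum: HTR2C was at 23.7 CPM, against 195 to 326 CPM in LHX6 interneurons of the other libraries, and CHST9 at 39.0 CPM, against 142 to 298 CPM. LRRC38, which leads subcluster 4, was at 72.6 CPM against 5.17 to 10.4 CPM. Control replicate 1 had the largest share of PVALB-like subcluster 6, with 60 of its 122 cells. Because genes used for clustering can differ between libraries, the shares were not tested between groups.

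**Figure D3:**
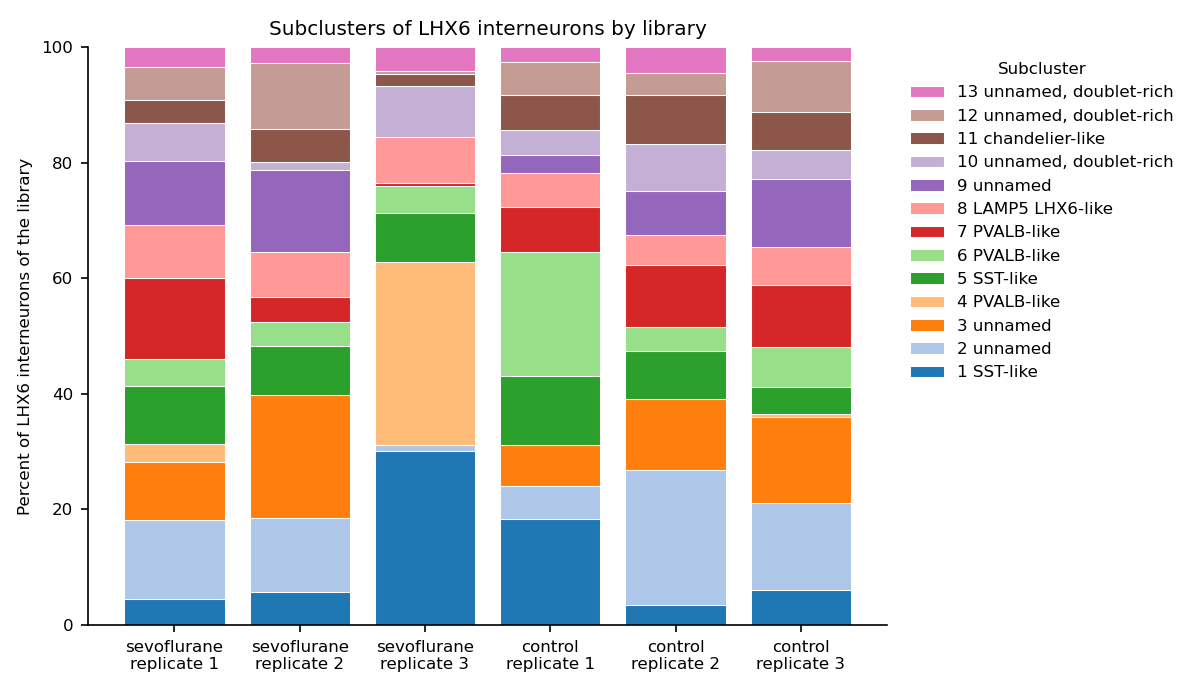
Percent of the LHX6 interneurons of each library in each of 13 subclusters, sevoflurane libraries left and control libraries right. Sevoflurane replicate 3 has 31.8% of its cells in subcluster 4 and none in subclusters 3 and 9.

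With all 6 libraries, the share of LHX6 interneurons among barcodes with at least 2000 UMIs did not separate the groups. It was 3.31%, 2.49% and 6.67% in sevoflurane libraries and 4.35%, 5.43% and 3.34% in control libraries. The mean was 4.16% after sevoflurane and 4.37% in controls, and the exact two-sided permutation test over 20 arrangements gave p = 0.9, where 0.1 is the smallest p that 3 against 3 allows. The highest value of all 6 was that of sevoflurane replicate 3, and without it the mean after sevoflurane was 2.90%, against 4.37% in controls (exact p = 0.2). The remaining sevoflurane values, 3.31% and 2.49%, lay below every control, of which the lowest was 3.34%. All these shares also depend on depth, through the counts that the rule asks for.

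Markers of the subtypes were then compared by the percent of LHX6 interneurons with at least 1 UMI, after each cell had been thinned to 2000 UMIs. SST was found in 11.1%, 13.5% and 5.58% of cells after sevoflurane and in 13.98%, 10.6% and 10.7% of control cells. ADARB2 interneurons ranged from 0.917% to 7.14%, and the value of sevoflurane replicate 3 was the 1 that lay within this range. PVALB was found in 2.02%, 1.42% and 1.46% of cells after sevoflurane and in 1.79%, 0.645% and 0.935% of control cells, with 0% to 0.917% in ADARB2 interneurons, and the groups overlapped. Of 10 markers, 2 did not overlap between groups, NOS1 and UNC5B, where the levels of 14.9% of all genes did not overlap in either direction. NOS1 was found in 21.2%, 26.2% and 21.6% of cells after sevoflurane and in 17.6%, 14.5% and 16.4% of control cells, against 1.59% to 8.67% of ADARB2 interneurons. Before thinning, those percentages were 42.9%, 60.3% and 43.4% after sevoflurane and 40.5%, 31.0% and 35.05% in controls. UNC5B was found in at most 2.84% of cells after sevoflurane and in at least 3.74% of control cells, and all 6 values lay within the 0.794% to 5.96% of ADARB2 interneurons. Both had an exact permutation p of 0.1, the smallest possible, and 0.5 after Benjamini-Hochberg adjustment over the 10 markers, so neither passed.

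The main comparison asked which genes of LHX6 interneurons differed after sevoflurane. UMIs were summed by library and tested with the quasi-likelihood test of edgeR at a Benjamini-Hochberg adjusted p under 0.05. Of 11001 genes, 0 passed (0%). At an unadjusted p under 0.05 there were 905 genes (8.23%), DESeq2 called 46 (34 higher and 12 lower after sevoflurane; 0.418%), and edgeR without a filter on low counts called 316 of 22479 (1.41%). Without sevoflurane replicate 3 edgeR called 8 of 11074 genes (0.0722%), 5 higher and 3 lower, and DESeq2 called 24 (0.217%). Differences below are log2 fold changes with a standard error, and sevoflurane is given over control. For edgeR this error was back-calculated from the fold change and the F statistic of the test. In 1066 genes (9.69%) every sevoflurane library lay above every control library, and in 573 (5.21%) every one lay below.

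The gene with the smallest p was ABCA13, a large lipid transporter of the ABC family. It had 27.1, 27.1 and 23.3 CPM after sevoflurane and 5.01, 3.70 and 6.83 CPM in controls. The groups were far apart, by 2.30 ± 0.27 on the log2 scale (edgeR adjusted p = 0.0687), and without sevoflurane replicate 3 ABCA13 passed (2.38 ± 0.31, adjusted p = 0.0496). AGBL3, a carboxypeptidase that trims glutamates from tubulin, had 58.3, 75.6 and 56.3 CPM after sevoflurane and 21.9, 21.5 and 12.5 CPM in controls. Its difference was 1.69 ± 0.23 (edgeR adjusted p = 0.0916), and 1.77 ± 0.24 without sevoflurane replicate 3 (adjusted p = 0.0496). A further 3 genes with no symbol filled the list of 5 named as higher. ENSCJAG00000053135 had 20.8, 22.6 and 20.5 CPM after sevoflurane and 5.47, 4.44 and 3.98 CPM in controls. ENSCJAG00000053704 had 17.2, 17.4 and 24.3 CPM after sevoflurane and 4.56, 5.18 and 4.55 CPM in controls. Neither gene overlapped between groups (edgeR adjusted p = 0.0687 and 0.0916). Without sevoflurane replicate 3 ENSCJAG00000053135 passed (2.16 ± 0.31, edgeR adjusted p = 0.0496) and ENSCJAG00000053704 did not (edgeR adjusted p = 0.107). ENSCJAG00000069052 was close to the detection limit, at 8.95 to 9.89 CPM after sevoflurane and 0.569 to 1.85 CPM in controls.

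Among genes that were lower, PDE3A had 36.4, 38.1 and 32.6 CPM after sevoflurane and 72.0, 76.7 and 89.9 CPM in controls. The difference was −1.20 ± 0.15 (edgeR adjusted p = 0.0687), and −1.13 ± 0.17 without sevoflurane replicate 3 (adjusted p = 0.0496). ALK, a receptor tyrosine kinase of developing and adult neurons, had 289, 220.4 and 243 CPM after sevoflurane and 531, 488 and 473 CPM in controls. It differed by −1.03 ± 0.14 (edgeR adjusted p = 0.0916), and by −1.004 ± 0.15 without sevoflurane replicate 3 (adjusted p = 0.0496). Of the genes named here as lower, ALK was the most abundant, and no control library came near a sevoflurane library. SHANK1, a scaffold of excitatory synapses, had 68.7, 67.2 and 59.8 CPM after sevoflurane and 98.0, 113 and 105 CPM in controls (−0.74 ± 0.13, edgeR adjusted p = 0.214). CRB1, a cell polarity protein, had 3.12, 1.94 and 4.48 CPM after sevoflurane and 11.8, 11.5 and 20.5 CPM in controls (−2.11 ± 0.40, edgeR adjusted p = 0.268), and ENSCJAG00000049069 stood at 7.28 to 9.69 CPM after sevoflurane and 19.3 to 31.8 CPM in controls. DESeq2 passed ABCA13, AGBL3, PDE3A, ALK and CRB1 (adjusted p = 0.000105, 3.03e-05, 0.000375, 3.03e-05 and 0.0283) but not SHANK1 (0.0514). It also passed ENSCJAG00000053135, ENSCJAG00000053704, ENSCJAG00000069052 and ENSCJAG00000049069 (DESeq2 adjusted p = 0.000939, 0.004965, 0.0365 and 0.0107).

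Another 3 genes passed without sevoflurane replicate 3 and differed in that library from the rest of its group. SIAH3, a member of the SIAH ubiquitin ligase family, had 26.5 and 25.9 CPM in sevoflurane replicates 1 and 2 but 60.4 CPM in replicate 3, against 66.1, 56.3 and 61.4 CPM in controls. Its difference was −0.70 ± 0.30 with all libraries (edgeR adjusted p = 0.598) and −1.26 ± 0.18 without replicate 3 (adjusted p = 0.0496). ENSCJAG00000059186 (21.3, 32.3 and 5.44 CPM after sevoflurane; 3.64, 6.67 and 6.26 CPM in controls) and ENSCJAG00000067752 (14.05, 29.7 and 2.56 CPM; 1.82, 0.370 and 1.71 CPM in controls) had the opposite sign. In all 3, sevoflurane replicate 3 was closer to the controls than the other sevoflurane libraries were.

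**Figure D4:**
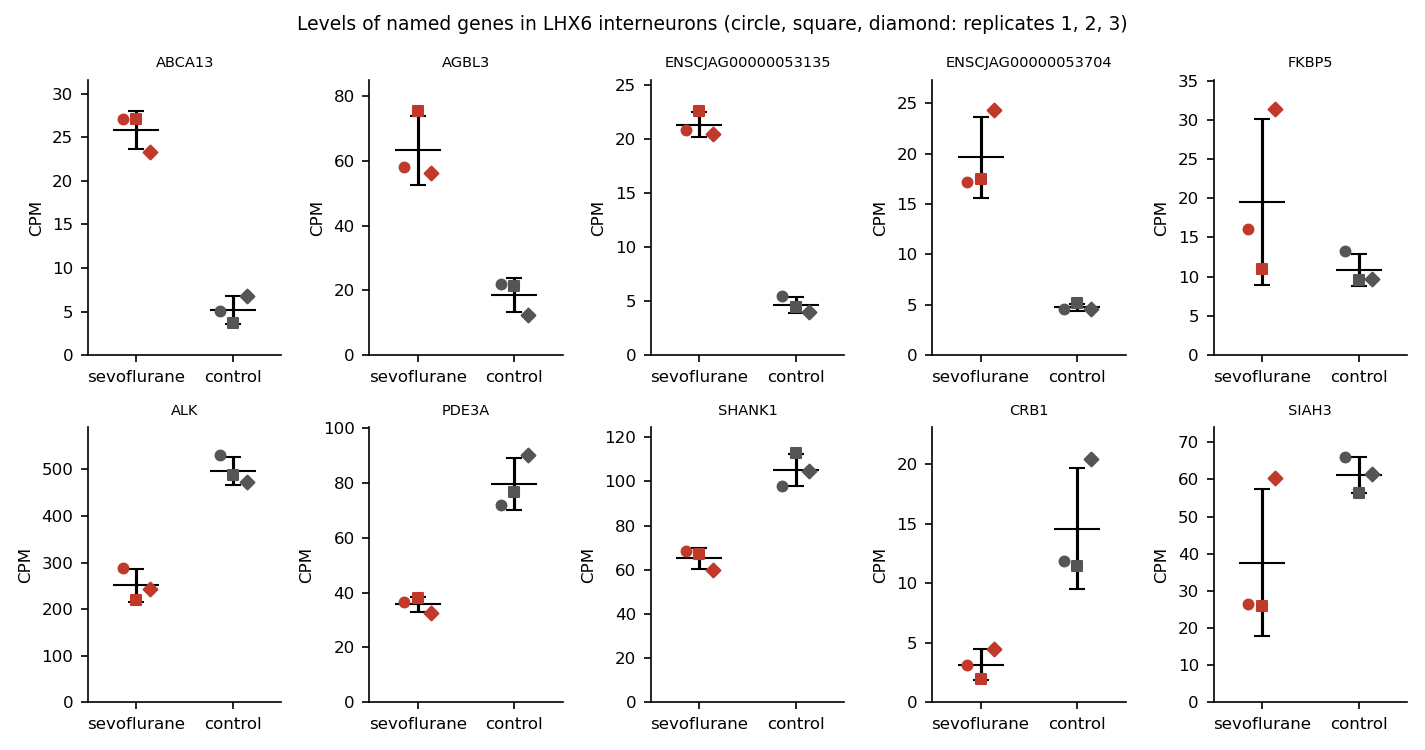
CPM of 10 genes in the summed LHX6 interneurons of each library, sevoflurane (red) left and control (grey) right, with mean and SD (n = 3 libraries) in black and the vertical axis from 0. ABCA13, AGBL3, ENSCJAG00000053135 and ENSCJAG00000053704 do not overlap between groups, while FKBP5 overlaps and its highest value is that of sevoflurane replicate 3.

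FKBP5, the gene of the series title, encodes a co-chaperone of the glucocorticoid receptor that the receptor itself induces. In LHX6 interneurons it had 16.1, 11.0 and 31.3 CPM after sevoflurane and 13.2, 9.63 and 9.67 CPM in controls. The groups overlapped, at a difference of 0.86 ± 0.38 (edgeR adjusted p = 0.612; exact two-sided permutation p = 0.2), and without sevoflurane replicate 3 the difference was 0.30 ± 0.32 (adjusted p = 0.821). After thinning, FKBP5 was found in 3.03%, 2.84% and 5.10% of LHX6 interneurons after sevoflurane and in 2.87%, 1.61% and 1.87% in controls. All 6 shares lay below the 5.56% to 11.1% of ADARB2 interneurons, and glutamatergic neurons ranged from 4.67% to 13.04%. Within LHX6 interneurons FKBP5 was highest in subcluster 10, at 57.6 CPM, where 40.4% of cells were marked as doublets; without the doublet-rich subclusters the difference was 0.65 ± 0.37 (edgeR adjusted p = 0.697).

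Of 12 tested genes of the glucocorticoid response 0 passed, 9 were positive, 1 lay higher without overlap and their median was 0.34, against 0.00 over all genes; without sevoflurane replicate 3 the median was −0.21. KLF9, a transcription factor induced by the receptor, had 5.20, 5.17 and 13.8 CPM after sevoflurane and 8.20, 1.48 and 2.84 CPM in controls. NR3C1, the glucocorticoid receptor, had 81.7, 83.4 and 174 CPM after sevoflurane and 98.9, 89.3 and 89.9 CPM in controls. SGK1, a kinase induced by the receptor, had 247, 291 and 202 CPM after sevoflurane and 316, 271 and 350.5 CPM in controls. KLF9 and NR3C1 were thus highest in sevoflurane replicate 3, and SGK1 was lowest there.

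The remaining lists were read by how many genes did not overlap between groups, beside the 9.69% higher and 5.21% lower of all genes. No gene of any list passed with all libraries or without sevoflurane replicate 3, so the differences named below are values that did not pass. Of 18 transcription factors of interneurons, 2 were separate on the higher side and 1 on the lower, with a median of 0.00 (−0.06 without sevoflurane replicate 3). MAF had 84.8, 105 and 128 CPM after sevoflurane and 57.9, 54.4 and 52.9 CPM in controls (0.90 ± 0.17, edgeR adjusted p = 0.268). NPAS1, which restrains interneuron production in mice, had 44.7, 38.8 and 45.7 CPM after sevoflurane and 24.6, 24.4 and 18.8 CPM in controls (0.88 ± 0.18, edgeR adjusted p = 0.286). Both lay above every control in all 3 sevoflurane libraries, and without replicate 3 the differences were 0.73 and 0.83. ETV1, which tunes the excitability of parvalbumin cells in mice, had 11.97, 9.05 and 13.4 CPM after sevoflurane and 17.8, 30.7 and 24.5 CPM in controls (−1.10 ± 0.27, edgeR adjusted p = 0.347). LHX6 itself differed by −0.02 ± 0.12.

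Of 12 peptide, calcium-binding and other subtype genes, NOS1 was the 1 separate on the higher side and CORT, a relative of somatostatin, the 1 on the lower. NOS1 had 147, 206 and 188 CPM after sevoflurane and 128, 97.8 and 121 CPM in controls (0.59 ± 0.16, edgeR adjusted p = 0.394; 0.56 without replicate 3). CORT was sparse, at 2.08 to 4.16 CPM after sevoflurane and 5.55 to 7.40 CPM in controls. SST (65.0, 79.5 and 24.0 CPM after sevoflurane; 68.8, 55.9 and 67.7 CPM in controls) and NPY (49.4, 69.8 and 14.4 CPM; 25.1, 38.9 and 50.1 CPM in controls) overlapped. In both peptides the lowest of all 6 values was that of sevoflurane replicate 3.

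Of 11 genes for GABA synthesis, transport and breakdown, 0 were separate and the median was 0.01 (−0.02 without sevoflurane replicate 3). GAD2 differed by 0.01 ± 0.16 and GAD1 by −0.19 ± 0.17. ABAT, which breaks GABA down, was at 165 to 181 CPM after sevoflurane and 173 to 174 CPM in controls. SLC12A5, the chloride exporter that makes GABA inhibitory, had 65.6, 54.9 and 74.8 CPM after sevoflurane and 84.3, 79.3 and 70.6 CPM in controls (−0.30 ± 0.16, edgeR adjusted p = 0.663). Values of GAD1, GAD2, ABAT and SLC12A5 overlapped between groups.

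Receptors through which the anaesthetic acts were measured in the same cells. Of 17 GABA-A, GABA-B and glycine receptor genes, 2 were positive and 15 negative, with a median of −0.18 (−0.19 without sevoflurane replicate 3), and 2 were separate on the lower side. GLRA3, a glycine receptor subunit, had 17.2, 33.6 and 23.0 CPM after sevoflurane and 35.5, 65.5 and 44.9 CPM in controls (−1.05 ± 0.28, edgeR adjusted p = 0.394). GABRB1, a beta subunit of the GABA-A receptor, had 571, 463 and 634 CPM after sevoflurane and 779, 670.3 and 669 CPM in controls (−0.39 ± 0.15, edgeR adjusted p = 0.516). Of 20 glutamate receptor genes, 3 were separate on the higher side and 2 on the lower, with a median of −0.11 (−0.10 without sevoflurane replicate 3). The NMDA receptor subunit GRIN2A had 979, 975 and 1259 CPM after sevoflurane and 869, 764 and 736 CPM in controls (0.39 ± 0.15, edgeR adjusted p = 0.504), while GRIN2D, the subunit typical of interneurons, had 39.5, 45.2 and 53.4 CPM after sevoflurane and 65.2, 62.2 and 55.2 CPM in controls (−0.44 ± 0.16, edgeR adjusted p = 0.495).

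Genes that join synapses had the most separate members on the lower side. Of 26 neuregulin and adhesion genes, 6 lay lower after sevoflurane without overlap and NRXN3 lay higher, with a median of −0.08 (−0.12 without sevoflurane replicate 3). ERBB4 had 7482, 7015 and 5622 CPM after sevoflurane and 9719.6, 8382 and 9177 CPM in controls (−0.48 ± 0.15, edgeR adjusted p = 0.431; −0.37 without replicate 3). The teneurin TENM2 had 3197, 3631 and 3690.2 CPM after sevoflurane and 4691, 4972 and 4635 CPM in controls (−0.49 ± 0.12, edgeR adjusted p = 0.347; −0.53 without replicate 3). TENM1, TENM3, CNTNAP4 and LRRTM3 were the other 4, with differences between −0.55 and −0.44. ERBB4 also ranged from 1213 to 15908 CPM between subclusters, whose shares differed between libraries; the part of that mix in the difference was not tested.

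No channel or release gene passed, and the separate ones are given as values. Of 12 channel genes of fast-spiking cells, 3 were separate on the higher side and 1 on the lower, with a median of 0.11 (0.13 without sevoflurane replicate 3). SCN1A, the sodium channel of interneuron axons, had 655, 637 and 655 CPM after sevoflurane and 554, 468 and 550.2 CPM in controls (0.26 ± 0.12, edgeR adjusted p = 0.621). KCNC2, a potassium channel of fast spiking, had 1066, 1146 and 960.0 CPM after sevoflurane and 1287, 1289.5 and 1508 CPM in controls (−0.41 ± 0.13, edgeR adjusted p = 0.423). Of 17 release genes, 2 were separate and both higher, CPLX1 (0.50 ± 0.18) and SNAP25 (0.12 ± 0.11), with a median of 0.03. Of 11 background and pore channels linked to anaesthetics, 0 were separate and the median was 0.01 (0.05 without sevoflurane replicate 3). Of 11 genes of the perineuronal net 1 was separate, HAS3 on the lower side, with a median of −0.20 (−0.36 without it). Of 12 modulator receptors 0 were separate, with a median of −0.44 (−0.10 without it).

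All 16 tested heat shock and chaperone genes were negative, with a median of −0.30 (−0.19 without sevoflurane replicate 3), and 1 was separate: HSPA4 had 68.2, 67.9 and 65.9 CPM after sevoflurane and 70.6, 85.9 and 101 CPM in controls. Of 26 immediate early genes 7 could be tested. Among these 1 was positive and 0 were separate, with a median of −0.41 (−0.23 without it). NR4A1 had 8.84, 9.05 and 14.4 CPM after sevoflurane and 8.66, 19.6 and 14.2 CPM in controls. Of 13 clock genes, 2 were separate, both lower, with a median of 0.06 (−0.12 without it). PER2, a repressor of the clock, had 7.28, 11.6 and 4.48 CPM after sevoflurane and 13.2, 30.7 and 22.2 CPM in controls (−1.63 ± 0.41, edgeR adjusted p = 0.348; −1.30 without replicate 3). RORA had 1481, 1485 and 1489 CPM after sevoflurane and 1632, 1685 and 1814 CPM in controls (−0.25 ± 0.11, edgeR adjusted p = 0.611). The hour at which each library was taken is not stated. Of 16 genes of respiration and PGC-1 alpha, 2 were separate on the higher side and 1 on the lower, and 8 were positive.

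**Figure D5:**
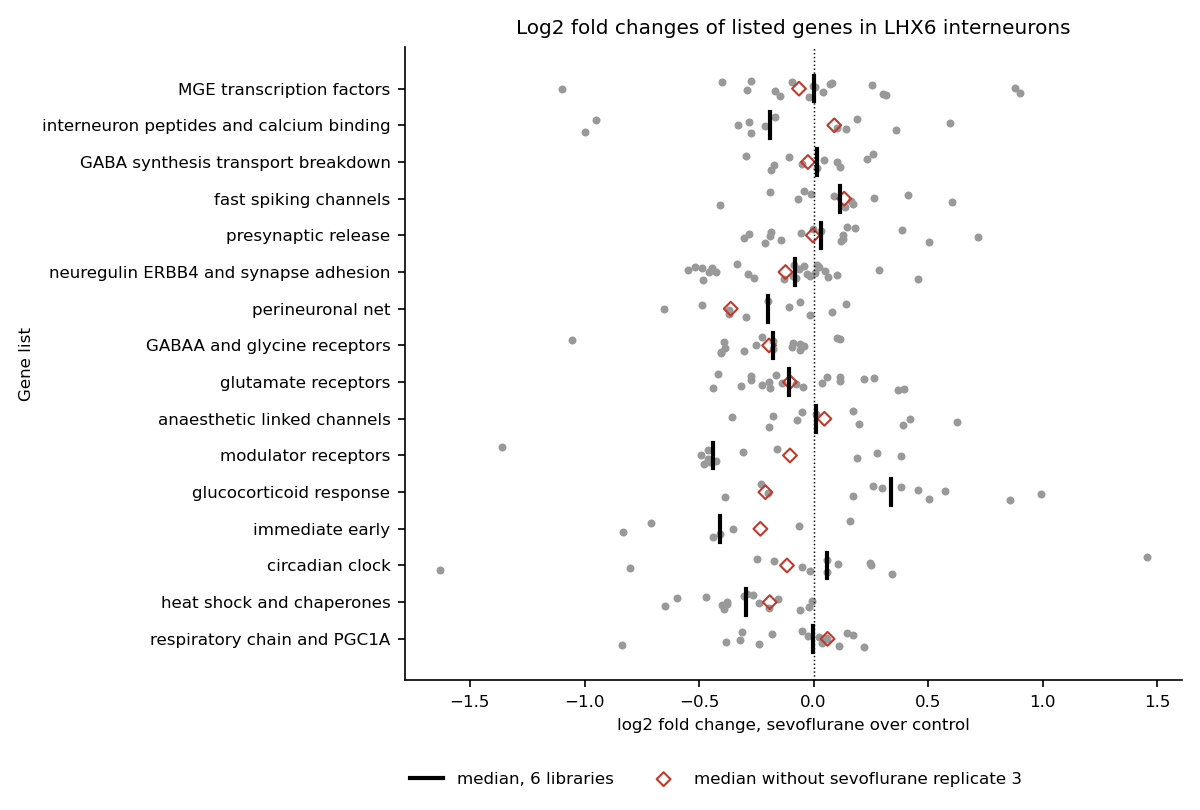
Log2 fold changes of sevoflurane over control in LHX6 interneurons for the measured genes of 16 lists (grey points), with the median over 6 libraries (black bar) and without sevoflurane replicate 3 (red diamond). The glucocorticoid median is 0.34 with all libraries and −0.21 without replicate 3, while the medians of GABA-A and glycine receptors and of heat shock genes are negative both ways.

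The same genes were then read in ADARB2 interneurons of the same libraries. There 0 of 8785 genes passed (0%; 818 at an unadjusted p under 0.05), and 20 of 9337 (0.214%) passed without sevoflurane replicate 3. The response was compared by taking, in each library, the difference of log2 CPM between LHX6 and ADARB2 interneurons and testing it with limma. Of 8725 genes 0 passed (0%), 470 had an unadjusted p under 0.05, and the lowest adjusted p was 0.601; without sevoflurane replicate 3 there were also 0.

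AGBL3, ENSCJAG00000053704, ENSCJAG00000049069, PDE3A and SHANK1 had differences of the same sign in both classes, and so did ABCA13, ALK, SIAH3 and FKBP5. AGBL3 had 28.4, 70.2 and 60.3 CPM in ADARB2 interneurons after sevoflurane and 23.9, 15.9 and 16.2 CPM in controls, a log2 difference of 1.40 ± 0.35. SHANK1 had 61.3, 57.9 and 64.0 CPM in ADARB2 interneurons after sevoflurane and 80.9, 131 and 118 CPM in controls (−0.91 ± 0.20). Neither passed in ADARB2 interneurons (edgeR adjusted p = 0.247 and 0.195). The responses of the classes differed by 0.44 ± 0.33 for AGBL3 and by 0.15 ± 0.21 for SHANK1 (limma adjusted p = 0.938 and 0.982), LHX6 minus ADARB2.

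ABCA13 and ALK were further apart, with log2 differences of 0.40 ± 0.39 and −0.18 ± 0.20 in ADARB2 interneurons. ABCA13 had 15.9, 33.3 and 12.3 CPM in ADARB2 interneurons after sevoflurane and 13.8, 14.3 and 14.2 CPM in controls, and its response differed by 1.82 ± 0.34 between the classes (limma adjusted p = 0.854). ALK had 727, 461 and 470.1 CPM in ADARB2 interneurons after sevoflurane and 646, 624 and 530.3 CPM in controls, and its response differed by −0.82 ± 0.18 (limma adjusted p = 0.854). Neither difference passed, so no response was shown to be particular to LHX6 interneurons. Of the other genes named by the rule, RELN had a response of −0.20 in LHX6 and −1.70 in ADARB2 interneurons, a difference of 1.51 ± 0.30, and HCRTR2, an orexin receptor, one of −0.43 in LHX6 and −1.82 in ADARB2 interneurons, a difference of 1.39 ± 0.22. RPL10, a ribosomal protein gene, had −0.29 in LHX6 and 0.90 in ADARB2 interneurons, a difference of −1.19 ± 0.18. The limma adjusted p was 0.854 for RELN, and 0.601 for HCRTR2 and RPL10.

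Among subtypes, SST-like cells reached 20 cells in every library and could be tested: 29, 20 and 159 cells after sevoflurane and 84, 37 and 23 in controls. Subclusters 1 and 5 made up these cells, with 120.3 and 57.8 CPM of SST, found in 38.0% and 25.7% of cells. Subclusters 2 and 12 lay outside the test, with 108 and 127 CPM of SST, found in 50.9% and 55.3% of cells. PVALB-like, LAMP5 LHX6-like and chandelier-like cells had a library with 12, 11 and 8 cells and were not tested. In SST-like cells 7 of 4363 genes passed (0.16%), 2 higher and 5 lower after sevoflurane; 313 had an unadjusted p under 0.05, and DESeq2 called 12 (0.275%). Most of the SST-like cells of sevoflurane replicate 3 were of subcluster 1, and without that library the count was 7 of 4571 (0.153%), of which 5 were also called with all libraries: PROM1, SHC3, GDA, SDK1 and PRKG1.

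PRKG1, the kinase activated by cyclic GMP, had 461, 602 and 472 CPM in SST-like cells after sevoflurane and 1275, 1102 and 1047 CPM in controls (−1.18 ± 0.18, edgeR adjusted p = 0.0261). SHC3, an adaptor of neuronal receptor tyrosine kinases, had 64.0, 38.3 and 30.4 CPM after sevoflurane and 191, 164 and 268 CPM in controls (−2.33 ± 0.31, edgeR adjusted p = 0.0259). SDK1, an adhesion protein that matches synaptic partners, had 119, 98.5 and 139 CPM after sevoflurane and 288, 286 and 289 CPM in controls (−1.22 ± 0.20, edgeR adjusted p = 0.0343). All 3 fell in SST-like cells, and without sevoflurane replicate 3 they still passed, at −1.13, −1.94 and −1.40. GDA, a guanine deaminase that also shapes dendrites, fell as well (−1.50 ± 0.23, edgeR adjusted p = 0.0261; −1.56 without replicate 3). ARHGAP42 had 12.8, 16.4 and 4.90 CPM after sevoflurane and 77.4, 53.4 and 73.8 CPM in controls. It fell by 3.03 ± 0.47 on the log2 scale (edgeR adjusted p = 0.0261), but at −2.24 ± 0.51 did not pass without replicate 3 (adjusted p = 0.125).

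On the higher side, EPB41, a protein of the membrane skeleton, had 119, 87.6 and 110 CPM in SST-like cells after sevoflurane and 36.0, 34.3 and 33.6 CPM in controls (1.60 ± 0.27, edgeR adjusted p = 0.0378), and 1.55 ± 0.35 without replicate 3 (adjusted p = 0.115). PROM1 had 201, 317 and 402 CPM after sevoflurane and 82.8, 95.3 and 101 CPM in controls; it is a leading gene of subcluster 1, so its difference is given as a description. Across all LHX6 interneurons the 5 lower genes differed by −0.94 to −0.80, and 0 of them passed there. The 7 calls of SST-like cells depended on single control libraries and on the clustering. Without control replicate 1 or 3 there were 0 calls, without control replicate 2 there was 1, and with clustering at resolution 1.0 there were 0 of 6413. At that resolution SHC3 stood at −1.47 ± 0.39, ARHGAP42 at −2.35 ± 0.48 and EPB41 at 0.94 ± 0.31 (edgeR adjusted p = 0.756, 0.559 and 0.875). GDA, SDK1 and PRKG1 stood at −1.14, −1.20 and −1.22 (adjusted p = 0.551, 0.551 and 0.559).

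Markers of other cells in the summed LHX6 interneurons were compared by group. Microglia markers, of which 8 of 8 were measured and none was at 0, summed to 12.3 to 45.1 CPM after sevoflurane and 48.8 to 70.6 CPM in controls, without overlap. Glutamatergic markers summed to 116 to 281 CPM after sevoflurane and 135 to 178 CPM in controls. SLC17A7 and PROX1 were left out of this sum, which held 9 of 11 markers. Astrocyte markers summed to 823 to 1132 CPM after sevoflurane and 894 to 1048 CPM in controls, oligodendrocyte markers to 156 to 392.4 CPM and 212 to 307 CPM, and endothelial and mural markers to 20.03 to 60.1 CPM and 19.3 to 28.4 CPM. Markers of oligodendrocyte precursors summed to 743 to 831 CPM after sevoflurane and 729 to 799.6 CPM in controls, with the defining markers OLIG1 and OLIG2 at 0. The sums of all but microglia markers overlapped. The astrocyte sum was mostly GPC5, with a mean of 640.3 CPM over the libraries. Of 7 astrocyte markers tested 0 passed, 2 lay lower after sevoflurane without overlap, and the median log2 difference was −0.67 (−0.36 without sevoflurane replicate 3). These 2 were GFAP, the astrocyte filament gene, with 9.37, 7.11 and 3.52 CPM after sevoflurane and 11.8, 15.2 and 30.2 CPM in controls, and the glutamate transporter SLC1A3, with 27.6, 26.5 and 28.1 CPM after sevoflurane and 55.1, 32.2 and 66.6 CPM in controls. The part of these cells in the results above was not tested. Without the 229 cells of the 3 doublet-rich subclusters edgeR called 0 of 10362 genes, and 11 of 10473 (0.105%) without sevoflurane replicate 3 as well.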

How the data were processed

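Single cells were measured by 10x 3' RNA sequencing. The deposited matrices hold counts of UMIs per gene and barcode, made with Cell Ranger 6.1.1 per the file headers; the submitters' processing notes also name CASAVA 1.8 and Seurat. The genome build is not given in the sources used here. Of 29320 genes, 15188 had a symbol in the files, 1397 took one from a table of gene names and 12735 kept their ID.

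The members and all gene lists were chosen with earlier results of these data known. Counts of the chosen cells were summed by library and tested with edgeR 4.0.16 in R 4.3.3 (filterByExpr, TMM factors, quasi-likelihood F test, Benjamini-Hochberg adjusted p under 0.05), with DESeq2 1.42.0 as an alternative. Responses of LHX6 and ADARB2 interneurons were compared with limma 3.58.1 on log2 CPM with a prior count of 2. Single values were tested by exact permutation over 20 arrangements of the libraries. Cells were clustered with scanpy 1.11.5 and igraph 0.11.9 (2000 variable genes, 20 principal components, 15 neighbours). Doublets were marked with Scrublet, at 1 threshold for all libraries, the median of their automatic ones (0.190), since that of sevoflurane replicate 2 was far from the rest.

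FKBP5 is named always. Beyond it the rule took changed genes whose groups did not overlap and whose average log2 CPM reached 4, ranked by fold, up to 12 a direction (5 for the response difference); where fewer than 5 qualified, the smallest p-values filled the list to 5. Of each list, all that passed or else a few best known or most abundant members were named; other list members were named because their groups did not overlap, after their values were seen. The edgeR and limma tests were also run on simulated data. These drew all libraries of a class from a common profile, without the subcluster differences between libraries seen here. Alternatives were other normalisations, no filter, thinning, a stricter rule, singlets, and leaving out each library. The stricter rule asked for at least 4000 UMIs and for no UMI of ADARB2 or SLC17A7.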

Additional observations from a re-analysis of the deposited data

How the results depend on the processing

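The count of 0 changed genes in LHX6 interneurons was also found with RLE factors, the stricter rule, thinned cells and singlets. DESeq2 called 46 genes, or 24 without sevoflurane replicate 3, and no filter on low counts gave 316. Leaving out single libraries gave 0 to 8, and leaving out sevoflurane replicate 3 with the doublet-rich subclusters gave 11; these last alternatives and the DESeq2 one without replicate 3 were chosen after seeing the data. In SST-like cells the main count of 7 became 12 with DESeq2, 61 with no filter and 0 at resolution 1.0, and ranged from 0 to 10 over left-out libraries. Replicate numbers did not pair the libraries (correlations of same-numbered libraries −0.152, 0.017 and −0.215); with a replicate block 0 genes were called in all LHX6 interneurons and 3 in SST-like cells. The response difference gave 0 throughout. FKBP5 stayed positive and did not pass in 15 alternatives, at 0.213 to 1.12.

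The share of LHX6 interneurons, −0.218 percentage points in the main comparison, ranged from −1.48 to 0.615 over left-out libraries and was 4.99 as a percent of LHX6 and ADARB2 interneurons together. Differences in marker shares changed sign for NPY (0.712), LAMP5 (2.23) and CALB1 (−0.124) without thinning, and for GRIK3 without doublets (−0.368). Over left-out libraries they ranged from −3.44 to 0.503 for SST, −2.07 to 1.68 for NPY, −0.921 to 0.594 for LAMP5, −0.527 to 0.741 for TAC1, −0.185 to 1.25 for CALB1 and −5.73 to 6.72 for GRIK3. The causes were not tested. With 3 libraries a group, and 141 to 412 cells in each, genes of a few CPM are at the limit of detection.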
